A study of Mus musculus with 2 samples.

Results

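The mitochondrial ribosomal protein genes, the nuclear genes named Mrpl or Mrps with a number, were read in total RNA from mouse common myeloid progenitors (CMP), the bone marrow cells that give rise to granulocytes, monocytes, red cells and megakaryocytes. Members were the protein-coding genes with such a symbol, which gave 77 genes, 48 named for the large subunit (Mrpl) and 29 for the small subunit (Mrps), of 43346 mouse genes in the tables. The annotation lists 78 such genes, and Mrpl33, whose identifier had no counterpart in the tables, was not analysed here. Each of the 2 libraries came from 100 primary cells of male C57BL/6J mice, adults of 5 to 6 weeks with no treatment given in the labels. RNA of more than 200 nucleotides was used, and the libraries held 28916263 (replicate 1) and 26426710 (replicate 2) expected counts. Both libraries form 1 group of separate biosamples that carry the same donor identifier, so no conditions can be contrasted, and differences between replicate 1 and replicate 2 describe the spread between these pools, which may be technical.

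Mitochondria carry their own ribosome, which makes the few proteins encoded by mitochondrial DNA, all of them subunits of the respiratory chain complexes or of ATP synthase. Its ribosomal RNAs are encoded in the mitochondrial genome, whereas every protein of it is encoded in the nucleus, made in the cytosol and imported. Part of these proteins descend from bacterial ribosomal proteins, and the others were added during the evolution of mitochondria.

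Some promoters of the genes shared short sequence words, and 4 with the word CCGGAAG are shown as examples. In these the word lies within 100 bases of the annotated start, in a stretch outside any annotated exon. Mrpl48 and Mrpl58 also met this rule and are not shown, and windows of other members that met it held only the word CCAAT. Each line gives the 100 bases before the RefSeq start of the gene in build GRCm38.p6, 5′ to 3′ on the gene's strand. Capitals mark the letters CCGGAAG, the core of sites for ETS family transcription factors, or their reverse complement CTTCCGG.
Mrpl52 chr14:54426809-54426908 forward strand: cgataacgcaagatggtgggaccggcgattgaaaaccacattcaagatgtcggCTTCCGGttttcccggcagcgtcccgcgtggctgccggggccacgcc
Mrpl34 chr8:71464826-71464925 forward strand: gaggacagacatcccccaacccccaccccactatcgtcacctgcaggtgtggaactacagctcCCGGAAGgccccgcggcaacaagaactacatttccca
Mrpl43 chr19:45006443-45006542 reverse strand: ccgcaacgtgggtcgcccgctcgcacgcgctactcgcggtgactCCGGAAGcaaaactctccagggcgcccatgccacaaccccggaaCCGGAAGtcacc
Mrps22 chr9:98601680-98601779 reverse strand: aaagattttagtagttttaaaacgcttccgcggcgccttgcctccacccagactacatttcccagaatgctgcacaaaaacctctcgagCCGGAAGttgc
The letters nearest to the start began 47 bases before it in Mrpl52, the member with the highest mean level, 37 in Mrpl34 and 11 in Mrps22. Mrpl43 held the word 2 times in this window, the nearer one 12 bases before the start.

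All 77 members were detected, defined as 1 or more TPM (transcripts per 1000000, a level corrected for transcript length) in both libraries, while 44.9% of the 21461 nuclear protein-coding genes were. At 5 TPM 76 members were still counted and at 10 TPM 68. The lowest expected count of any member in a library was 80.6, far above the 3 counts that set the detection limit. The median member lay at 27.7 TPM in replicate 1 and 30.7 TPM in replicate 2 (29.2 ± 2.14 TPM, SD, n = 2). For protein-coding genes detected in both libraries the median was 13.2 and 13.5 TPM, and 64 of the 77 members lay above it in both libraries. Summed, the members held 0.669% of nuclear protein-coding TPM in replicate 1 and 0.702% in replicate 2. Those totals, 377627 and 392625 TPM, include Lars2 at 16724 and 5181 TPM, which lowers the share more in replicate 1.

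The members formed a band of moderate levels, narrower than that of detected protein-coding genes and far below the proteins of the cytosolic ribosome. The 76 cytosolic ribosomal protein genes had medians of 1189 and 1452 TPM, and the 13 proteins encoded by mitochondrial DNA had medians of 1261 and 1217 TPM. Within the members, the 90th percentile was 5.07 times the 10th in replicate 1 and 4.94 times in replicate 2. The same ratio was 2.88 and 3.01 for the cytosolic ribosomal proteins and 18.5 and 18.3 for detected protein-coding genes. Among other genes of mitochondrial translation, it was 4.50 and 4.89 for ribosomal proteins with other symbols and 3.64 and 5.04 for translation factors. It was 5.18 and 3.78 for messenger RNA handling, 5.97 and 6.55 for ribosome assembly and 5.43 and 7.13 for tRNA synthetases. A band of this width was thus not particular to the members. A mean level between 15 and 50 TPM was found in 54 members.

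**Figure D1:**
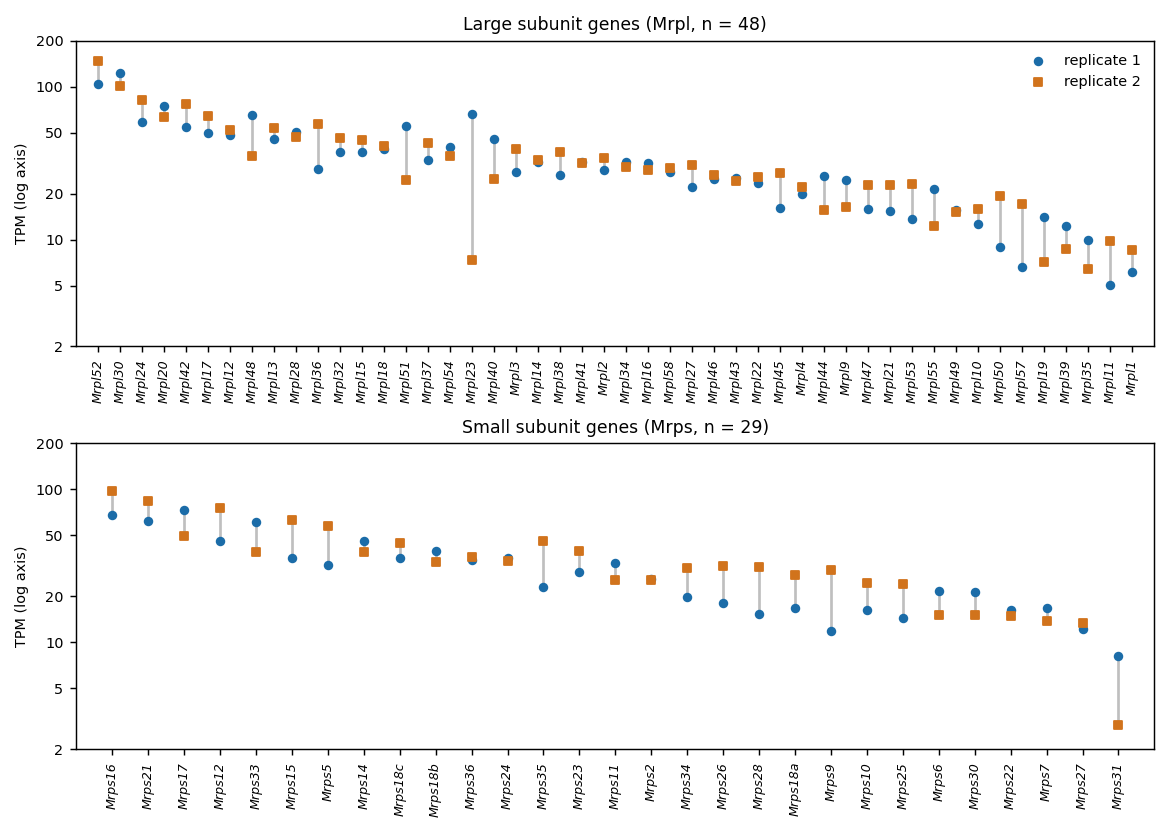
TPM (log axis) of each of the 48 large subunit and 29 small subunit genes, ordered by mean level within each subunit, with replicate 1 as circles, replicate 2 as squares and a line joining the values of a gene. Levels run from 148 TPM for Mrpl52 to 2.88 TPM for Mrps31, and Mrpl23 has the longest line.

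The 8 members with the highest mean level comprised 5 large and 3 small subunit genes. Mrpl52 (chr14:54426909-54429756), a large subunit protein with no bacterial counterpart, had 104 TPM in replicate 1 and 148 TPM in replicate 2. Mrpl30 (chr1:37890477-37898535), which has a bacterial counterpart, had 123 and 101 TPM. These genes were the leading pair in both libraries, in opposite order. Mrps16, a small subunit protein whose loss in people impairs mitochondrial translation, had 68.0 and 97.0 TPM. Mrps21, another small subunit protein of bacterial descent, had 62.5 and 84.4 TPM, and Mrpl24 had 59.0 and 82.3 TPM. The remaining members of the 8 were Mrpl20 at 74.5 and 63.5 TPM, Mrpl42 at 54.4 and 77.0 TPM and Mrps17 at 73.3 and 49.9 TPM. Of the 10 highest members in each library 6 were shared, so the order within the upper range moved with the library.

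The 8 members with the lowest mean level comprised 6 large and 2 small subunit genes. Mrps31 (chr8:22411361-22429665), a small subunit protein specific to mitochondria, was lowest, with 8.12 TPM in replicate 1 and 2.88 TPM in replicate 2, and was the 1 member under 5 TPM in a library. Mrpl1, a protein of the flexible stalk beside the tRNA exit site, had 6.16 and 8.57 TPM. Mrpl11, which lies at the base of the stalk that recruits translation factors, had 5.07 and 9.81 TPM. The order of these 3 genes differed between the libraries, as Mrpl11 was lowest in replicate 1. Mrpl35 had 10 and 6.47 TPM, Mrpl39 had 12.3 and 8.63 TPM, and Mrpl19 had 14.1 and 7.18 TPM. Mrpl57 had 6.64 and 17.1 TPM and Mrps27, a protein with pentatricopeptide repeats, had 12.2 and 13.3 TPM. The 10 lowest members of each library had 6 in common, as did the 10 highest.

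Level went with transcript length among the members. Across the 77 genes, log2 TPM and log2 length had a Pearson correlation of -0.69 in replicate 1 and -0.66 in replicate 2 (Spearman -0.65 and -0.60); the points share a library, and TPM is itself divided by length. Counts without that division had a Pearson correlation with length of 0.25 and 0.21. By counts scaled to depth alone, Mrpl24, Mrpl12 and Mrpl30 came first, while Mrpl52 was not among the 8 highest. Mrps31 came last on both scales.

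Large and small subunit genes did not differ in median level beyond the spread between the libraries. In replicate 1 the median was 28.2 TPM for the large and 26.0 TPM for the small subunit, and in replicate 2 it was 28.9 and 31.4 TPM. The log2 ratio of small over large was therefore -0.12 in replicate 1 and 0.12 in replicate 2, with a mean of 0.00 ± 0.17 (SD, n = 2). An exact sign-flip test over 2 libraries cannot go below p = 0.5, so none was made. Placing the genes by the solved structure, in which Mrps18a and Mrps30 belong to the large subunit and Mrps36 to neither, gave medians of 27.6 and 28.0 TPM for 50 large and 27.4 and 32.4 TPM for 26 small subunit genes. Without correction for length, the ratio was negative in both libraries (mean -0.17), and so the sign of the ratio rests on the measure.

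Members counted as having a bacterial counterpart had somewhat higher medians than the others. The count follows the names used for the solved structure, in which Mrps18c alone of the Mrps18 genes keeps the bacterial name. The 45 members with a bacterial counterpart had medians of 31.9 and 33.1 TPM, and the 32 without one had 25.1 and 27.4 TPM. Within the large subunit by structure, the medians were 28.8 and 30.7 TPM for 29 genes with a counterpart and 26.0 and 26.6 TPM for 21 without. Within the small subunit, 16 genes with a counterpart had 34.1 and 36.6 TPM and 10 without had 18.8 and 31.1 TPM. The order was the same in both libraries and both subunits, but the gap in the small subunit changed with the library by more than its size in replicate 2, and no test was made over the members.

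The ribosomal RNAs that these proteins bind were measured in the same libraries. The large subunit RNA mt-Rnr2 had 0.795 times the TPM of the small subunit RNA mt-Rnr1 in replicate 1 and 0.915 times in replicate 2. By counts without length the ratio was 1.41 and 1.64, so which RNA was higher rests on the measure, while its order was the same in both libraries on either one.

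**Figure D2:**
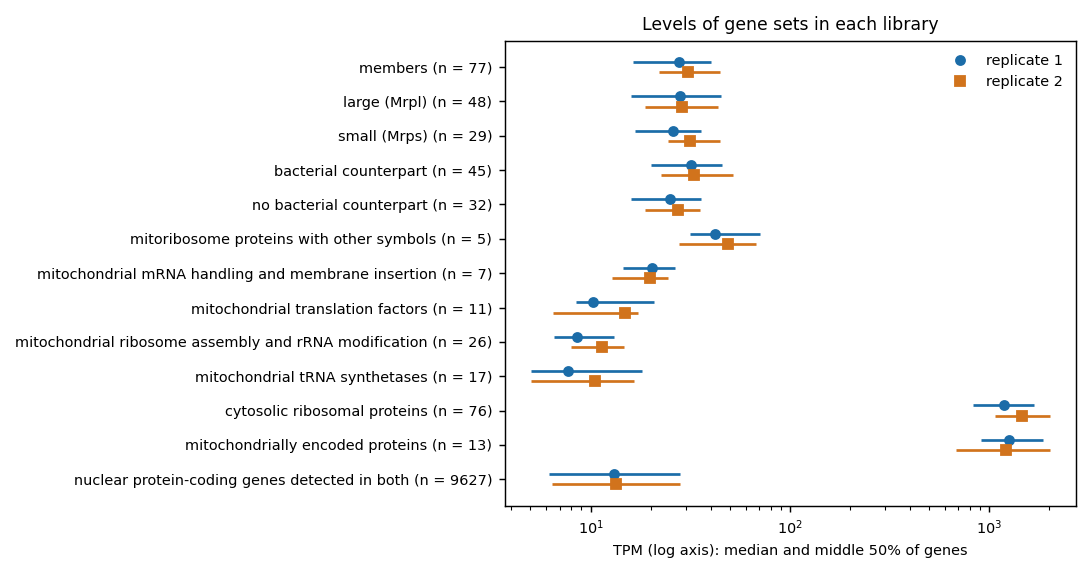
Median TPM (points, log axis) and the middle 50% of genes (lines) of each gene set in replicate 1 (circles) and replicate 2 (squares). The members, at medians of 27.7 and 30.7 TPM, sit above detected protein-coding genes at 13.2 and 13.5 TPM and below cytosolic ribosomal proteins at 1189 and 1452 TPM.

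The proteins around the factor-binding stalk were unequal in level. Mrpl12, the stalk protein present in several copies on each ribosome, had 48.7 TPM in replicate 1 and 52.1 TPM in replicate 2. Mrpl10, which anchors it, had 12.7 and 15.8 TPM, and Mrpl11 at the stalk base had 5.07 and 9.81 TPM. By TPM, Mrpl12 exceeded Mrpl10, and Mrpl10 exceeded Mrpl11, in both libraries. By counts without length, Mrpl10 had 406 and 500 and Mrpl11 285 and 547, so Mrpl11 was the higher of them in replicate 2. Their order in that library thus rests on the measure, with lengths of 1708 bases for Mrpl10 and 2882 bases for Mrpl11. The deposited credibility bounds of the 3 genes did not overlap within either library, the nearest being 10.1 TPM as the upper bound of Mrpl11 and 13.8 TPM as the lower bound of Mrpl10 in replicate 2.

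Mrps18a, Mrps18b and Mrps18c are paralogs related to 1 bacterial protein, with the first placed in the large subunit. Mrps18a had 16.7 and 27.4 TPM, Mrps18b 39.6 and 33.3 TPM and Mrps18c 35.8 and 44.6 TPM. Mrps18a was the lowest of them in both libraries, while Mrps18b and Mrps18c changed order. Mrps30, also a large subunit protein despite its name, had 21.3 and 15.1 TPM. Mrps36, now known as a component of the 2-oxoglutarate dehydrogenase complex and not of the ribosome, had 34.6 and 36.3 TPM, near the member median.

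Members with other known roles lay across the range. Mrpl58, a release factor that became a structural protein of the large subunit, had 27.5 and 29.2 TPM. Mrpl45, at the exit of the peptide tunnel where the ribosome meets the inner membrane, had 16.1 and 27.4 TPM. Its counts were 729 and 778, and its length, weighted over the transcripts assigned, was 2353 bases in replicate 1 and 1547 bases in replicate 2. The effective length, a shorter value deposited beside it, was 2208 and 1385 bases. The difference in TPM thus came with assigned transcripts of other lengths at nearly equal counts. Mrpl36, a very small large subunit protein of bacterial descent, had 28.8 and 57.3 TPM. Mrpl3 had 27.7 and 39.2 TPM and Mrpl44, a protein with an RNase III-like fold, had 26.0 and 15.6 TPM; variants of both genes cause human disease of the heart muscle. Among small subunit genes also known from inherited respiratory chain deficiency, Mrps2 had 26.0 and 25.4 TPM, Mrps22 had 16.3 and 14.9 TPM and Mrps34 had 19.7 and 30.8 TPM. Mrps12, the decoding-centre protein, had 45.8 and 75.8 TPM. Mrps2 and Mrps22 differed little between the libraries, with overlapping credibility bounds, whereas the bounds of Mrps34 and Mrps12 did not overlap.

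The other genes of mitochondrial translation were expressed with them, most at lower levels. All 5 ribosomal proteins with other symbols were detected, with medians of 42.1 and 48.7 TPM. Dap3, a small subunit GTP-binding protein first described in cell death, had 79.5 and 80.3 TPM, Chchd1 had 70.4 and 67.3 TPM and Aurkaip1 had 42.1 and 48.7 TPM. The lower pair was Ptcd3 at 31.4 and 27.9 TPM and Gadd45gip1 at 7.15 and 7.01 TPM. Dap3 and Gadd45gip1 each had nearly the same level in both libraries.

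Assembly factors and enzymes that modify the mitochondrial ribosomal RNAs were detected in 25 of 26 cases, at medians of 8.54 and 11.4 TPM. Fastkd2, an RNA-binding protein needed for the large subunit RNA, had 50.7 and 31.8 TPM, Rbfa had 18.9 and 23.9 TPM and Noa1 had 17.5 and 24.9 TPM. At the low end, the helicase Ddx28 had 3.15 and 3.79 TPM and the ribonuclease Ybey 0.29 and 2.07 TPM, the 1 gene of the list not detected in both. The 11 translation factors were all detected, at medians of 10.3 and 14.9 TPM. Tufm, the elongation factor that brings aminoacyl-tRNA to the ribosome, had 42.0 and 43.9 TPM, Gfm2 27.3 and 16.5 TPM and Tsfm 15.3 and 21.4 TPM. The recycling factor Mrrf had 8 and 3.87 TPM and the release factor Mtrf1l 2.47 and 6.71 TPM. Both lists thus had medians under that of the members in both libraries.

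The 7 genes for mitochondrial transcription, messenger RNA handling and membrane insertion had medians of 20.3 and 19.8 TPM. Slirp and Lrpprc, partners that stabilise mitochondrial messenger RNAs, had 56.0 and 27.9 TPM and 32.3 and 25.6 TPM, and the mitochondrial RNA polymerase Polrmt had 20.0 and 23.5 TPM. Tfb2m had 8.96 and 9.93 TPM and Taco1, a translational activator, had 6.72 and 2.64 TPM. The 17 tRNA synthetases had medians of 7.72 and 10.5 TPM. Iars2 had 23.9 and 19.3 TPM and Tars2 17.6 and 22.1 TPM, against 1.84 and 5.04 TPM for Aars2 and 3.65 and 2.62 TPM for Mars2. Lars2 was listed at 16724 and 5181 TPM, far from the other synthetases, and whether these reads came from its messenger RNA was not tested.

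The libraries differed for most members by more than counting noise, and this was also true of genes in general. By an exact binomial test on expected counts, adjusted over all genes with Benjamini-Hochberg at 0.05, 55 of 77 members differed, beside 78.2% of the 13616 genes tested. Of these, 22 were higher in replicate 1 (37.6% of all genes) and 33 in replicate 2 (40.6% of all genes). This test compares 2 libraries with counting noise alone and says nothing of a condition. At the common dispersion estimated from the libraries themselves, edgeR's exact test called 0 members and 0 genes, with 0 members and 1541 genes at an unadjusted p under 0.05. That dispersion was fitted on the same 2 libraries taken as 1 group, so it holds the differences that the test compares. This leans the test toward no call, and the absence of calls decides nothing about the members. Scaling by total counts in place of the trimmed mean of M values moved the median log2 ratio of all genes from 0.003 to 0.21. It gave 15 members higher in replicate 1 and 42 in replicate 2, beside 52.6% of all genes higher in replicate 2.

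The size of the differences was mostly below 2-fold. TPM differed by less than 1.5-fold in 50 members and by over 2-fold in 7. Neither count was made over all genes on this scale. On the scale of log2(TPM + 1), 7.79% of the members and 11.7% of detected protein-coding genes passed 2-fold, and the median absolute difference was 0.47 for the members and 0.38 for the detected genes. The deposited credibility bounds on TPM overlapped between the libraries in 25 members and did not in 52, beside 61.9% of detected protein-coding genes without overlap. Across the members, log2 TPM in the libraries had a Pearson correlation of 0.74 (Spearman 0.77, n = 77 genes), and across detected protein-coding genes 0.90 (Spearman 0.88, n = 9627 genes), which span a wider range of levels. The direction was similar in both subunits, as 29 of 48 large and 17 of 29 small subunit genes were higher in replicate 2 by TPM. The share of all genes higher in replicate 2 by TPM was not computed, so this direction does not set the members apart.

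**Figure D3:**
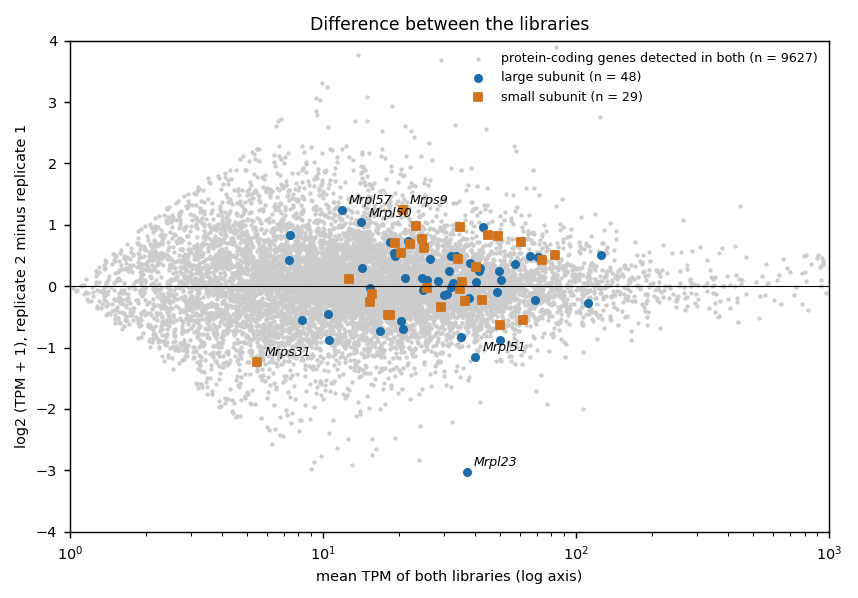
Difference in log2(TPM + 1), replicate 2 minus replicate 1, against mean TPM (log axis) for large subunit genes (circles), small subunit genes (squares) and protein-coding genes detected in both libraries (grey), with points beyond the axes not drawn. The members lie within the grey cloud, and Mrpl23 is the farthest below the line at 0.

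Mrpl23 (chr7:142532686-142540747), a large subunit protein near the exit of the peptide tunnel, differed most. It had 529 expected counts (66.7 TPM) in replicate 1 and 80.6 (7.34 TPM) in replicate 2, a log2 ratio of -2.74 with an adjusted p of 1.48e-81 in the exact binomial test and of 0.83 in edgeR's exact test at the common dispersion. Its processed pseudogene Mrpl23-ps1 (chr2:74591330-74591909) moved the other way, with 184 counts in replicate 1 and 827 in replicate 2. Mrpl23 transcripts hold 92.7% of the 31-base words of that pseudogene. Summed, gene and pseudogene had 713 and 908 counts, a log2 ratio of 0.32, with 25.9% of the sum on the pseudogene in replicate 1 and 91.1% in replicate 2. Reads of Mrpl23 and its copy can be split differently, so the level of Mrpl23 alone is uncertain in both libraries.

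The other 9 of the 10 members with the largest differences had no partner among the pseudogenes with Mrp symbols, and each passed the exact binomial test. Higher in replicate 1 were Mrps31 with 232 and 81 counts (log2 ratio -1.55), Mrpl40 with 800 and 387 (-1.08) and Mrps33 with 1216 and 637 (-0.96). Higher in replicate 2 were Mrpl57 with 297 and 758 counts (log2 ratio 1.32), Mrpl2 with 236 and 599 (1.32), Mrpl50 with 360 and 776 (1.08), Mrps12 with 226 and 484 (1.07), Mrps9 with 386 and 816 (1.05) and Mrps28 with 200 and 398 (0.96). Their adjusted p in that test ran from 8.38e-44 for Mrpl57 to 1.04e-14 for Mrps28, and it was 1 for all 9 in edgeR's exact test. For Mrpl2 the difference was in counts alone, as its TPM was 28.7 and 34.1 with overlapping credibility bounds and its effective length 400.1 and 856.1 bases. Both subunits were present in both directions.

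Genes of other cells also moved between the libraries. Kit at 98.1 and 93.0 TPM and Cd34 at 74.5 and 55.4 TPM were present as the CMP gate requires, Ly6a and Il7r had 0 counts in both, and Fcgr3 was at 0.64 and 4.27 TPM. The 5 megakaryocyte markers summed to 105 TPM in replicate 1 and 207 TPM in replicate 2, mostly Itga2b (49.8 and 100.02 TPM) and Pf4 (52.01 and 94.98 TPM), with Ppbp and Gp6 at 0. The 6 markers of monocytes, macrophages and dendritic cells summed to 10.9 and 28.6 TPM, with H2-Aa at 1 and 297 counts, Cd74 at 1 and 161, Csf1r lower in replicate 2 (840 and 378 counts), and Itgax and Ly6c1 at 0. Sums were 78.2 and 79.0 TPM for 7 erythroid, 7.18 and 6.01 TPM for 7 neutrophil, 7.60 and 12.2 TPM for 5 B cell, 0.10 and 0.46 TPM for 6 T and NK cell and 20.2 and 17.3 TPM for 5 stromal and endothelial markers. Their part in the differences between the libraries was not tested. In pooled cells, fewer cells of a type and less RNA per cell cannot be told apart.

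At the level of transcripts, the libraries often assigned a member's reads differently. Counts assigned to transcripts were tested as if they were observed reads, so the calls leave out the uncertainty of dividing shared reads. Of the 58 members with 2 or more annotated transcripts, 37 had a different share of counts on their leading transcript (the one with the highest summed count) by Fisher's exact test with Benjamini-Hochberg adjustment at 0.05, beside 77.9% of 7175 genes tested. With protein-coding transcripts alone, 22 of 29 members passed (75.9%), beside 72.6% of 5363 genes, so the members lay below all genes in the first setting and above them in the second. The share moved by 10 percentage points or less in 30 of the 58 and by over 20 points in 20. The size of the shift was not counted over all genes, so these counts do not set the members apart. The transcript with the highest TPM differed between the libraries in 14 of 58 members, beside 40.7% of 7224 genes.

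The 4 largest shifts ran from 68.5 to 100 percentage points. Mrpl38-205, an annotated retained-intron transcript of Mrpl38, took 0% of the gene's 507 counts in replicate 1 and 94.5% of 833 in replicate 2 (adjusted p = 8.13e-316, Fisher's exact test), while the protein-coding Mrpl38-201 had 491 and 0 counts. Mrpl1-201 took 0% and 89.3% (adjusted p = 1.55e-147), the other reads lying on 2 further protein-coding transcripts. For Mrpl2, Mrpl2-201 took 0% and 68.5% (adjusted p = 3.72e-89), and Mrpl23-202 took 100% and 0% (adjusted p = 3.68e-102). In Mrpl23 no counts fell on a protein-coding transcript in either library. Each of these 4 genes thus had its leading transcript at 0 counts in 1 of the libraries. The p-values of Fisher's exact test leave out the uncertainty of dividing reads between transcripts of a gene, so they can be too small. Whether such shifts reflect the RNA or the assignment of reads was not tested.

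Smaller shifts past 20 points were found in 16 further members. The share was higher in replicate 2 for the leading transcripts of Mrps11 (51.1% and 98.5%), Mrpl48 (46.6% and 87.6%), Mrps9 (53.3% and 83.6%) and Mrpl39 (77.6% and 100%). It was lower in replicate 2 for Mrpl53 (100% and 52.1%), Mrps21 (83.6% and 39.0%), Mrps12 (96.7% and 55.9%), Mrps14 (95.3% and 55.6%), Mrps18b (70.6% and 37.3%), Mrpl51 (60.2% and 28.3%), Mrpl47 (88.9% and 57.1%), Mrpl17 (59.8% and 31.1%), Mrpl55 (94.5% and 71.4%), Mrpl40 (67.4% and 46.0%), Mrps5 (59.1% and 38.2%) and Mrpl30 (64.3% and 43.7%). The other 17 members that passed were Mrps2, Mrps10, Mrps36, Mrps35, Mrps24, Mrpl22, Mrps33, Mrpl45, Mrpl46, Mrps25, Mrpl13, Mrps6, Mrpl54, Mrpl19, Mrpl41, Mrpl24 and Mrpl12, with shifts from 1.31 points in Mrpl12 to 16.1 points in Mrps2.

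Several members had most of their TPM on transcripts that are not annotated as coding. Transcript types are those of GENCODE M21, whereas reads were quantified with M4, and a type may differ between these releases. In 59 members a protein-coding transcript led by TPM in both libraries, and in 38 coding transcripts held 90% or more of the gene's TPM in both. Such counts were not made over all protein-coding genes, so those given here do not set the members apart. In 12 members they held under 50% in both libraries, and by counts, which long transcripts raise, this was so in 8 of the 12. The exceptions were Mrps25, Mrpl47, Mrpl15 and Mrpl51, in which coding transcripts held 77.6% and 70.8%, 88.9% and 57.1%, 62.4% and 49.6%, and 32.1% and 66.2% of the counts. Mrps26-201, a retained-intron transcript, held 95.4% and 96.3% of the TPM of Mrps26, and Mrps25-201, of the same type, held 63.3% and 85.8% for Mrps25. Transcripts annotated as targets of nonsense-mediated decay led in Mrpl3 (79.6% and 80.5%), Mrpl13 (62.2% and 62.9%), Mrps14 (99.1% and 80.3%) and Mrps11 (57.1% and 98.9%), and such a transcript was the only one listed for Mrpl32. Non-coding processed transcripts led in Mrps12 (98.6% and 79.3%), Mrpl47 (51.6% and 86.9%), Mrpl51 (73.8% and 51.3%) and Mrpl15 (46.4% and 54.7%). Mrps12, among the 10 members with the highest mean TPM, thus owed most of its TPM to a transcript of 380 bases.

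**Figure D4:**
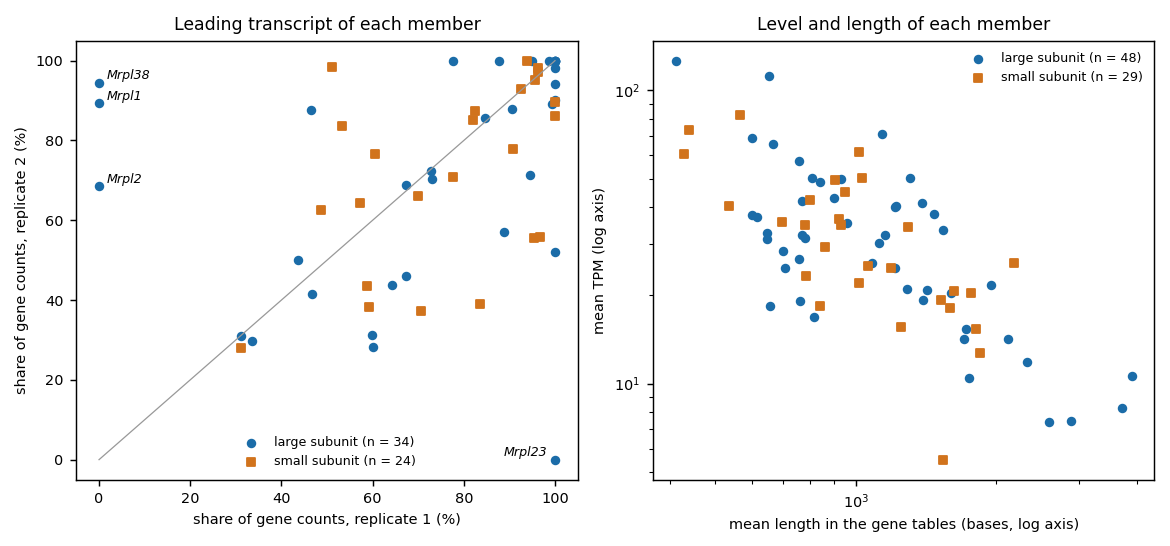
Left, share of a gene's counts on its leading transcript (%) in replicate 1 and replicate 2 for the 58 members with 2 or more transcripts, with the line of equality; right, mean TPM against mean length in bases (both log axes) for all 77 members, large subunit as circles and small subunit as squares. Mrpl38, Mrpl1 and Mrpl2 lie at 0% in replicate 1 and Mrpl23 at 0% in replicate 2, and level falls with length.

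Effective length differed over 1.5-fold between the libraries in 9 members, 11.7% of them, beside 11.8% of detected protein-coding genes. They were Mrpl17, Mrpl48, Mrps5, Mrpl2, Mrpl45, Mrps10, Mrpl47, Mrpl19 and Mrpl39. For Mrpl19 the counts were 762 and 712, the effective lengths 2637 and 4838 bases and the TPM 14.1 and 7.18. Mrpl47 had 573 and 340 counts but 15.9 and 22.7 TPM, the opposite order.

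The word shown in the promoters recurred in other members. Promoter sequence of 250 bases before to 50 bases after the start was found for 68 of the 77 members, and words were searched on both strands, none of them containing another. The ETS word CCGGAAG was present in 25 of the 68 genes (36.8%), in 12.9% of protein-coding genes with a promoter in the table, in 23.5% of the 7754 of those detected in both libraries and in 8.86% of all 32851 promoters. AAGATGGCG, the core bound by YY1, was in 8 genes (11.8%), against 2.14% of protein-coding and 4.38% of detected genes and 1.40% of all promoters. GCGCATGC, a core bound by NRF1, a regulator of nuclear genes for mitochondrial proteins, was in 7 (10.3%), against 3.94%, 6.84% and 2.71%. At least 1 of these words was in 35 members (51.5%), beside 17.6% of protein-coding and 31.7% of detected genes. The CCAAT box, a general promoter word, was in 26 (38.2%), beside 42.3%, 43.5% and 37.4%. Median GC content was 58.8% in the members' promoters, 56.3% in protein-coding and 52.7% in all promoters. A word found is a description of the letters and not a bound site.

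Levels of members with and without the ETS word overlapped widely. The 25 with it had medians of 28.7 and 31.4 TPM and the 43 without it 28.7 and 26.6 TPM, with ranges of 6.64 to 104 TPM and 5.07 to 123 TPM in replicate 1. The 8 genes with the YY1 word (Mrpl42, Mrpl36, Mrpl37, Mrps24, Mrps11, Mrps18a, Mrps27 and Mrpl35) had medians of 30.8 and 30.8 TPM. The 7 with the NRF1 word (Mrpl17, Mrpl32, Mrps18b, Mrpl22, Mrpl9, Mrpl10 and Mrpl39) had 24.5 and 25.9 TPM.

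Many members had an annotated start near that of a divergent neighbour, and whether such pairs share a promoter was not tested. The starts of 33 members (42.9%) lay within 1000 bases of the start of a protein-coding gene on the other strand, against 10.7% of annotated and 18.6% of detected protein-coding genes. Of these neighbours 29 were detected in both libraries, of which 17 were lower than the member in both, 8 were higher in both and 4 changed order. Mrps11 and Mrpl46, 1 protein of each subunit, faced each other with starts overlapping by 412 bases, at 32.8 and 25.6 TPM for Mrps11 and 24.9 and 26.6 TPM for Mrpl46. Mrpl30 faced Mitd1 (12.01 and 19.3 TPM), Mrps12 faced the mitochondrial seryl-tRNA synthetase Sars2 (7.72 and 10.5 TPM) and Mrpl36 faced the complex I subunit Ndufs6 (74.1 and 100.9 TPM). Mrpl49 (15.6 and 15.1 TPM) lay 59 bases from Fau, a cytosolic ribosomal protein gene at 723 and 842 TPM. In the last 4 pairs the higher gene was the same in both libraries. Members with such a neighbour had medians of 28.8 and 30.7 TPM, and the other 44 had 27.1 and 30.5 TPM.

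The members lay on 17 chromosomes, with 11 on chromosome 11, 8 on chromosome 17 and 7 on chromosome 6. By the annotation 41 overlapped another gene, 35 of them 1 on the opposite strand and 12 of them 1 on the same strand. These partners include pseudogenes and non-coding entries. The share of all protein-coding genes with an overlap was not computed, so the counts cannot be called high or low. Whether counting used strand is not given in the sources used here, so reads of such overlaps may be shared between partners. The longest overlaps were those of Mrps6 with Gm49711 (53912 bases, same strand) and Slc5a3 (29152 bases, same strand), Mrps27 with 6430562O15Rik (15953 bases, opposite strand) and Mrpl3 with Gm47106 (15084 bases, opposite strand), and the levels of these genes are uncertain to that extent.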

How the data were processed

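Total RNA of 2 CMP libraries was measured, and the members held 0.147% and 0.173% of the expected counts. With 3 counts as the limit of a count of 0, the floor was 0.104 (replicate 1) and 0.114 (replicate 2) counts per 1000000, for counting error only. Per the deposited file notes, the authors aligned reads to mm10 with GENCODE M4. Which aligner and quantifier they used is not given in the sources used here. In the deposited tables, expected counts divide the reads that genes or transcripts share and need not be whole, and TPM, as deposited, is relative to all entries of a table. The deposited lengths, effective lengths and credibility bounds were used as given, and no source used here states the level of the bounds.

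Gene identifiers, stripped of their version, were looked up in GENCODE M21 (same build), which gave symbols and types for 42462 of 43346 mouse genes, and coordinates are from M21. Members, gene lists and tests were chosen with earlier results of these data known. Genes named in full are the 8 highest and 8 lowest members, the 10 called members with the largest library difference, members whose leading transcript changed, fixed members by role, and the 3 highest and 2 lowest of each list. Further genes were chosen after their values were seen.

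Expected counts were rounded and compared by a two-sided exact binomial test with TMM scaling (edgeR 4.0.16) where either library had at least 10 counts, ribosomal RNA, tRNA entries and spike-ins being left out. Leading transcripts were compared by a two-sided Fisher's exact test at 50 or more counts in each library (scipy 1.17.1). Differences in TPM are on log2(TPM + 1). Scripts were checked on simulated data. Alternatives tried were other thresholds, posterior means, values without length, coding transcripts alone, DESeq2 1.42.0 size factors, total counts, a common dispersion and leaving out each library.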

Additional observations from a re-analysis of the deposited data

Results flagged for a closer look

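Reads on annotated Mrp pseudogenes, which are not members, exceeded the 3 counts that a count of 0 allows in 3 of 5 genes. Mrpl23-ps1 had 184.4 expected counts (replicate 1) and 827.45 (replicate 2), and 92.7% of its 31-base words also occur in Mrpl23. Mrpl48-ps had 5.41 counts in replicate 1, with 56.8% of its words in Mrpl48, and Mrps36-ps2 had 3.3 counts in replicate 2, with 71.3% of its words in Mrps36. How much of these reads came from the parent genes was not tested.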

How the results depend on the processing

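The log2 ratio of small over large subunit medians changed sign with the setting, from a mean of 0.0023 to -0.0235 with posterior mean TPM, -0.17 with depth-scaled counts without length and -0.15 with protein-coding transcripts alone, and it ranged from -0.12 to 0.12 when a library was left out; the cause was not tested. The median member level was 75.8 TPM when TPM was rescaled over nuclear protein-coding genes, which by construction raises every value. The count of members that differed between the libraries was 55 under DESeq2 size factors, with no count minimum and over protein-coding genes alone. It was 57 with total counts and 0 under edgeR's exact test at the common dispersion. In that test all 10 members named for their difference lost the call. Its dispersion was fitted on the same 2 libraries and holds the differences tested, so this loss decides nothing. Leading transcripts differed in 22 of 29 members tested (75.9%, beside 72.6% of all genes) when coding transcripts alone were used, against 37 of 58 (63.8%, beside 77.9%). With Mrpl23-ps1 added, an alternative chosen after seeing the data, the log2 ratio of Mrpl23 changed from -2.74 to 0.32. The results over all members were kept in 21 further settings. Counts and library differences stayed within 1.5-fold, and medians and ratios moved by no more than the spread, without a change of sign. In 20 settings of single members' differences, direction and side of the threshold were kept. No paired analysis was possible because the libraries form 1 group. With 2 libraries of 100 cells each, a level is known only to the spread between them, and depth did not limit detection, as every member had over 80 counts.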
